A study of Mus musculus with 2 samples.

Results

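The genes described here drive the cell cycle or restrain it. They are 47 genes of DNA replication, mitosis, the D-type cyclins and the G1/S switch, together with cell cycle inhibitors and the stress-responsive polo-like kinases, listed by name with no measured value in the rule. Through probe sets that the platform annotation gives to 1 gene only, 46 of the 47 were represented on the array, by 108 of its 45101 probe sets, among 18193 genes named in this way. No such probe set was found for cyclin B1 (Ccnb1), and all those of thymidylate synthase (Tyms) had signals below the detection floor in both pools.

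Female Balb/C mice, 6 to 8 weeks old, were used throughout. Per the labels, the air pouch, a cavity raised under the back skin whose lining stands in for synovium, was made with 2 ml air and used after 7 days, whereas the paper's methods give a somewhat different schedule. Control pouches received 1 ml PBS, and MSU pouches 2 mg of monosodium urate crystals in 1 ml PBS, the crystals that cause gout. Membranes were dissected 9 h later, and the RNA of 3 mice per condition was pooled and hybridized to 1 array, so the 2 arrays hold no replicate and no spread between mice. No test between the conditions was therefore possible, and all values describe these 2 pools.

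A cell enters the cycle when growth signals raise D-type cyclins, which with CDK4 and CDK6 inactivate the retinoblastoma protein and free the E2F factors that switch on replication genes. After replication, cyclin A and cyclin B with CDK1 drive mitosis, and the anaphase-promoting complex then destroys them. The inhibitors of the INK4 family bind CDK4 and CDK6, those of the CIP/KIP family bind most cyclin-CDK complexes, and the GADD45 proteins act in stress-induced arrest. In inflamed tissue, dividing cells can be fibroblasts, vessel cells or macrophages, whereas blood neutrophils do not divide.

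Signals are linear intensities scaled by the authors to the same trimmed mean on both arrays. A fold is MSU over control where both signals reached the detection floor of their array (64.6 for control and 74.1 for MSU), and a bound, written as at least a fold, where only 1 did. A size of 2-fold is used as a fixed limit and not as a test. A gene counts as measured with either of them, and a gene with several probe sets is given by its brightest. Between probe sets of the same gene, log2 ratios differed by a median SD of 0.22 over 4002 genes. This spread is between probe sets on the same arrays, and it does not measure error between arrays, mice or dissections. In whole membranes, fewer cells of a type and less RNA per cell cannot be told apart.

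Genes of the cycle itself were mostly a little lower in the MSU pool, whereas its inhibitors divided into a group that was higher and a pair that was lower. Among 45 genes with a measurement, 3 passed 2-fold upwards (Cdkn1a, Gadd45a and Plk3), or 6.67%, beside 3.70% of all 11155 measured genes. Another 7 were at least 2-fold lower (Pcna, Tk1, Cdk1, Birc5, Ube2c, Cdkn1c and Cdkn2c), or 15.6%, beside 4.29% of all measured genes. The median log2 ratio was -0.22 over the 42 of these genes with a fold, beside -0.05 over the 10045 genes with a fold, and 31 of the 42 lay below the median of all genes. The 18 probe sets of the hybridization spike-ins, control RNAs added to each array in fixed amounts, were all brighter on the MSU array. With the signals scaled on them instead, 12 of the genes passed 2-fold downwards and 2 upwards, beside 15.8% and 1.77% of all genes. That scaling lowers each log2 ratio by 0.46 and leaves the differences between genes as they are. When the floor was used as a pseudocount on each array, a setting that pulls dim genes towards no change, Cdkn1a and Gadd45a stayed at least 2-fold higher and Cdkn2c at least 2-fold lower, and no other of the 47 genes passed the limit.

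**Figure D1:**
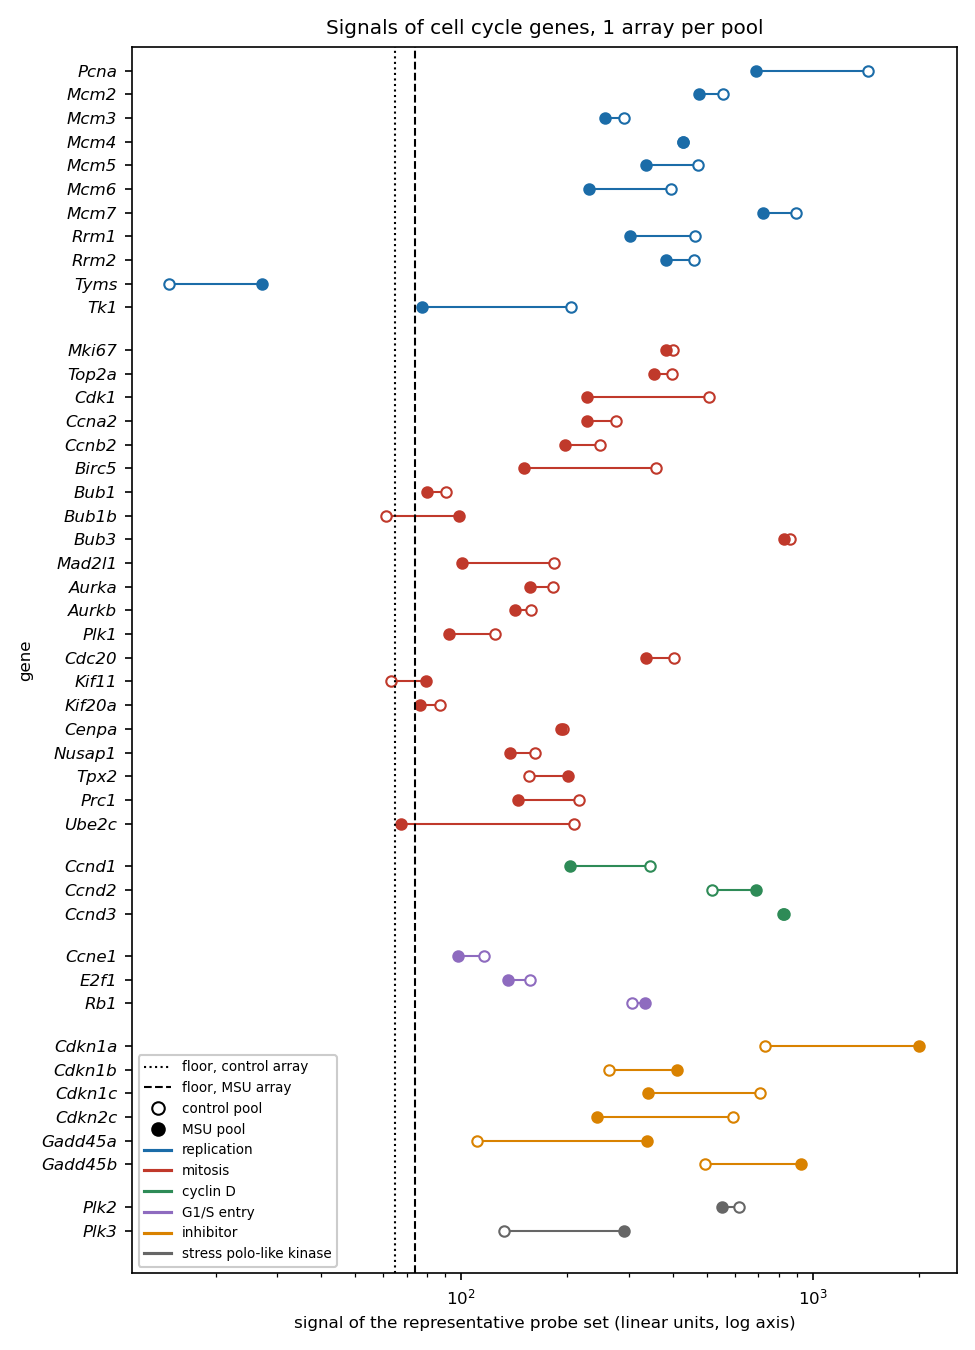
Signal of the representative probe set of each of the 46 genes (x axis, linear units on a log scale) in the control pool (open points) and the MSU pool (filled points), 1 array per pool, coloured by role. Vertical lines are the detection floors of 64.6 and 74.1, and Tyms alone lies left of both in both pools. Filled points lie left of open points for all replication genes above the floor and right of them for Cdkn1a, Cdkn1b, Gadd45a and Gadd45b.

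The replication genes make the DNA and its building blocks. All 10 measured members had log2 ratios below 0 on their brightest probe sets, from -1.42 to -0.01. With other choices of probe set, Mcm3 and Mcm4 were above 0. The median over the 10 was -0.40. This median was below 0 under every scaling tried, between -0.86 and -0.38. Scaling to the median signal and on the spike-ins lowers every ratio, so neither could have raised it. The value of -0.86 is that of the spike-in scaling, under which the median of all genes with a fold was -0.51. At the limit of 2-fold, 2 of the 10 were lower and 0 higher, beside 4.29% and 3.70% of all measured genes. The proliferating cell nuclear antigen Pcna, the sliding clamp of DNA polymerases, gave 1437 in control and 690 in MSU membranes, a 2.08-fold lower signal. Thymidine kinase Tk1, which salvages thymidine in S phase, had signals of 206 and 77.1 and was 2.67-fold lower. The MSU signal of Tk1 was close to the floor, and only 1.13% of all genes with a fold had a lower ratio.

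The minichromosome maintenance proteins Mcm2 to Mcm7 form the ring-shaped helicase that opens DNA at the replication fork. None of the 6 reached 2-fold. Mcm6 came nearest, with signals of 396 and 230, or 1.72-fold lower, followed by Mcm5 with 473 and 336, or 1.41-fold lower. Mcm7 (895 and 722), Mcm2 (554 and 473) and Mcm3 (291 and 256) were 1.24-, 1.17- and 1.14-fold lower. The other probe sets of Mcm7 gave log2 ratios of -0.32, -0.04 and 0.02, so not all of them were lower. Mcm4, at 428 and 427, was at the same level in both pools. The subunits thus spanned log2 ratios from -0.78 to -0.01, although they act together in equal numbers. For Mcm3, the other probe sets with a fold gave log2 ratios of -0.06, 0.27 and 0.73, and its median over probe sets was 0.11, so no direction can be given. The order of Mcm6 and Mcm5 also rests on the probe set, since the other ones with a fold gave -0.26 for Mcm6 and -0.75 for Mcm5. Ribonucleotide reductase makes deoxyribonucleotides. Its large subunit Rrm1 had signals of 464 and 302 and was 1.54-fold lower, and its S phase subunit Rrm2 had 460 and 382, a log2 ratio of -0.27. The other probe set of Rrm1 had a log2 ratio of -0.11, and those of Rrm2 ranged down to -0.71, so the order of the subunits rests on the probe set chosen.

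Promoters of replication genes are known for E2F sites. In the 300 bases around the start of each RefSeq gene (250 before and 50 after, mouse build GRCm38.p6), the letters TTTCCCGC, TTTCGCGC, TTTGGCGC and TTTGCCGC were searched on both strands as E2F letters. They were found in 4 of the 10 replication genes with a promoter in the table (Mcm3, Mcm5, Mcm6 and Mcm7), or 40%, beside 2.60% of all 27025 genes. Of the 2 genes at least 2-fold lower, Pcna and Tk1, neither holds these letters in this window. The promoter of Mcm6 is shown because it holds 3 of them (at chr1:128359656-128359955, minus strand, read along the gene). Capitals mark E2F letters and CCAAT boxes (CCAAT or, on the other strand, ATTGG), and the first run in capitals holds E2F letters of both strands that overlap.
Mcm6: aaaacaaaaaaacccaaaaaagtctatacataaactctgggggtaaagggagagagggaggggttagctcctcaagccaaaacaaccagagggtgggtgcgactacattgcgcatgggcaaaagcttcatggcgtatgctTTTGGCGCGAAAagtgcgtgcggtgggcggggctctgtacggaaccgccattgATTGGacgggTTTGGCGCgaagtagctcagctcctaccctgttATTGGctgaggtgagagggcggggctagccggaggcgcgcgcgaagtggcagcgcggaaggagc

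The mitosis genes include the mitotic kinases, the spindle and its checkpoint, and the machinery that ends mitosis. All 21 members with a named probe set were measured, 18 with a fold, and 17 of these 18 were below 0 on the log2 scale. Their median log2 ratio was -0.23, and under the scalings tried it lay between -0.68 and -0.23. The value of -0.68 is again that of the spike-in scaling, beside -0.51 over all genes with a fold. In this group 3 of the 21 genes were lower by 2-fold or more and 0 higher, beside 4.29% and 3.70% of all measured genes. Cdk1, the kinase that drives entry into mitosis, gave 507 in control and 228 in MSU membranes and was 2.22-fold lower. Survivin (Birc5), which targets Aurora B to centromeres and also restrains cell death, had signals of 359 and 151 and was 2.38-fold lower. Ube2c, the ubiquitin-conjugating enzyme of the anaphase-promoting complex, had signals of 210 and 67.3, the latter below the floor, and was at least 2.83-fold lower. Each of these 3 genes had a single probe set, so no second measurement of them stands beside these values. The same holds for Pcna, Tk1, Cdkn1c, Cdkn2c, Gadd45a and Plk3, and the second probe set of Cdkn1a lay below both floors.

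Of the markers used to count dividing cells, Ki-67 and topoisomerase II alpha differed by less than the median spread between probe sets. Pcna, also used as such a marker, was 2.08-fold lower, as given above. Ki-67 (Mki67) had signals of 400 and 383, or 1.05-fold lower, and topoisomerase II alpha (Top2a), which untangles replicated DNA, 398 and 353, or 1.13-fold lower. The spike-in scaling put the log2 ratios of Mki67 and Top2a at -0.52 and -0.63, beside -0.51 over all genes with a fold. The partners of Cdk1 differed less than Cdk1 itself, with cyclin A2 (Ccna2) at 275 and 227 and cyclin B2 (Ccnb2) at 247 and 197, 1.21- and 1.26-fold lower. The log2 ratio was -1.15 for Cdk1, -0.28 for Ccna2 and -0.33 for Ccnb2. Aurora A (Aurka), which builds the spindle poles, had signals of 182 and 156 and was 1.17-fold lower, and Plk1, a mitotic kinase, had 125 and 92.1 and was 1.36-fold lower. Aurora B (Aurkb), at 158 and 142, was 1.11-fold lower. It forms the chromosomal passenger complex with survivin and with Incenp and borealin (Cdca8). The last of these, named for this comparison after their values were seen, were 1.12- and 1.13-fold higher, which scaling on the spike-ins turns to lower, while the log2 ratio of survivin was -1.25.

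The spindle checkpoint holds anaphase until chromosomes are attached. Mad2l1, its soluble inhibitor of the anaphase-promoting complex, had signals of 183 and 100 and was 1.83-fold lower, while the checkpoint kinase Bub1 had 90.4 and 79.8 and was 1.13-fold lower. Bub3, which carries Bub1 to kinetochores, had 860 and 826, or 1.04-fold lower, and BubR1 (Bub1b) 61.1 and 98.5, at least 1.52-fold higher. Bub1b had a further probe set below both floors with a plain ratio in the opposite direction (49.9 and 8.09), so these signals are too low for a direction. Cdc20, which activates the anaphase-promoting complex, had signals of 403 and 336 on its brightest probe set, a log2 ratio of -0.26, whereas that of its other probe set above the floor was 0.04. The motor Kif11 was at least 1.23-fold higher, with both signals (63.3 and 79.5) near the floor, and the motor Kif20a was 1.14-fold lower, at 86.9 and 76.5. The centromere histone Cenpa (195 and 192) was 1.02-fold lower and Nusap1, which bundles spindle microtubules, 1.18-fold lower (162 and 137). Prc1, the bundler of the central spindle, had signals of 216 and 145, and both its probe sets gave a log2 ratio of -0.58. Tpx2, the activator of Aurora A, was the one mitosis gene with a fold above 1, at 156 and 202, or 1.29-fold higher, which became slightly lower (log2 -0.08) under the spike-in scaling. Its other probe sets with a fold gave log2 ratios of 0.38 and -0.06.

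**Figure D2:**
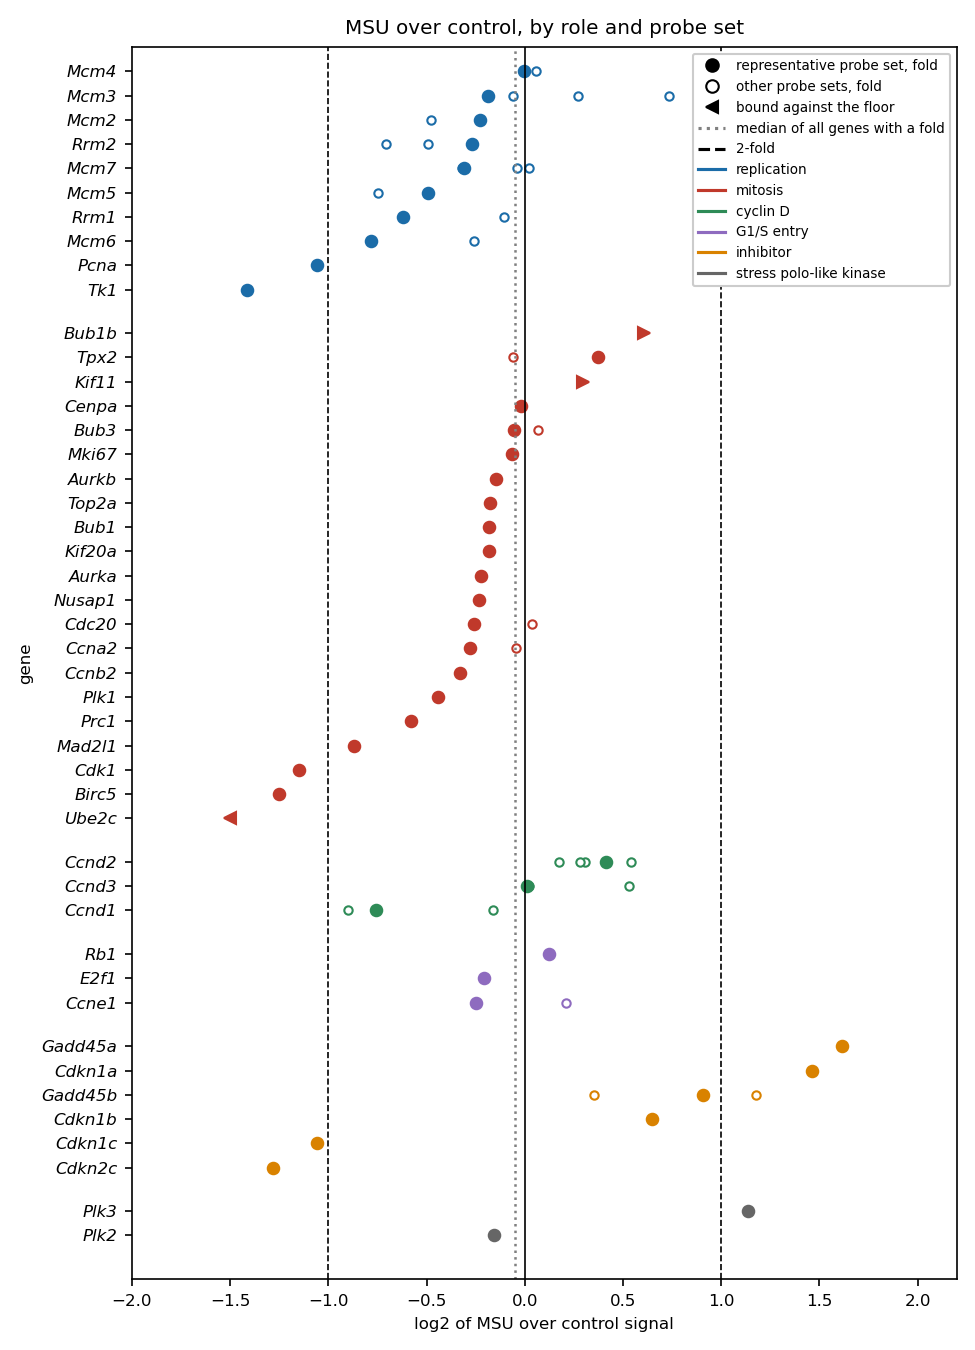
Log2 ratio, MSU to control (x axis), of each measured gene (y axis), sorted within its role, 1 array per pool. Filled points are representative probe sets, open points other probe sets with a fold, triangles bounds against the floor, dashed lines 2-fold and the dotted line the median of all genes (-0.05). Open points that coincide with a filled one are hidden, the filled points right of 2-fold are Gadd45a, Cdkn1a and Plk3, and probe sets of Mcm3 spread from -0.18 to 0.73.

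Genes of late cell cycle stages are known for the cell cycle genes homology region (CHR), bound together with CCAAT boxes. The letters TTTGAA and TTCGAA were searched on both strands as the CHR, and CCAAT likewise. CHR letters were found in 14 of 18 mitosis genes with a promoter in the table, or 77.8%, beside 21.7% of all genes, and CCAAT letters in 15 of 18, or 83.3%, beside 41.1%. In contrast, CHR letters were found in 2 of 10 replication genes and in 0 of 5 inhibitor genes. The letters are shown for Cdk1 and Ube2c, which were at least 2-fold lower, and for Mki67, which was near equal, since all 3 hold both motifs. The Cdk1 promoter lies at chr10:69352863-69353162 (minus strand), that of Ube2c at chr2:164769679-164769978 (plus strand) and that of Mki67 at chr7:135716330-135716629 (minus strand), all in GRCm38.p6 and read along the gene. Capitals mark CHR letters (TTTGAA, or TTCAAA from the other strand), CCAAT boxes (CCAAT or ATTGG) and, in Cdk1, 1 run of E2F letters, and a pair of CCAAT boxes overlaps in Ube2c.
Cdk1: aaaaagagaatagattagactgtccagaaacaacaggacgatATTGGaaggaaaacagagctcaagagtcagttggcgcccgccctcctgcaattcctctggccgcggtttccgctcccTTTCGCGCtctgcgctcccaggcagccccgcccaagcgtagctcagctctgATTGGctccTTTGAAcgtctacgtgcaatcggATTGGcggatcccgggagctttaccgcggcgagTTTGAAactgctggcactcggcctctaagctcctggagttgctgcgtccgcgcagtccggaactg
Ube2c: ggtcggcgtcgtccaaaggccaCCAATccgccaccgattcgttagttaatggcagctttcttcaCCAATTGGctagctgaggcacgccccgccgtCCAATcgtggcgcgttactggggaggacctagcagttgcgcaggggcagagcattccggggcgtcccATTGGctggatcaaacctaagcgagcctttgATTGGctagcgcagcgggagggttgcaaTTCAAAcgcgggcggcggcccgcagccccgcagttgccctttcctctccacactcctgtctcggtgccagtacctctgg
Mki67: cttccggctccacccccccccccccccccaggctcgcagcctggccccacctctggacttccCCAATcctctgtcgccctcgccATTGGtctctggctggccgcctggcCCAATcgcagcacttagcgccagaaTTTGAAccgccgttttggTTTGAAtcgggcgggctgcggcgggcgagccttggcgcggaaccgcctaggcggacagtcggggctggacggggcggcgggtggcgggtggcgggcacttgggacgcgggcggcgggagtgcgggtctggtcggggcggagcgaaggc
In Cdk1, CHR letters begin 71 and 15 bases before the start, each after a CCAAT box that begins 80 and 48 bases before it. In Ube2c they begin 29 bases before the start, after a CCAAT box at 57. Mki67, with signals near equal, holds CHR letters at 116 and 98 bases before the start. No such letters were found in this window for Birc5 and Mad2l1.

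**Figure D3:**
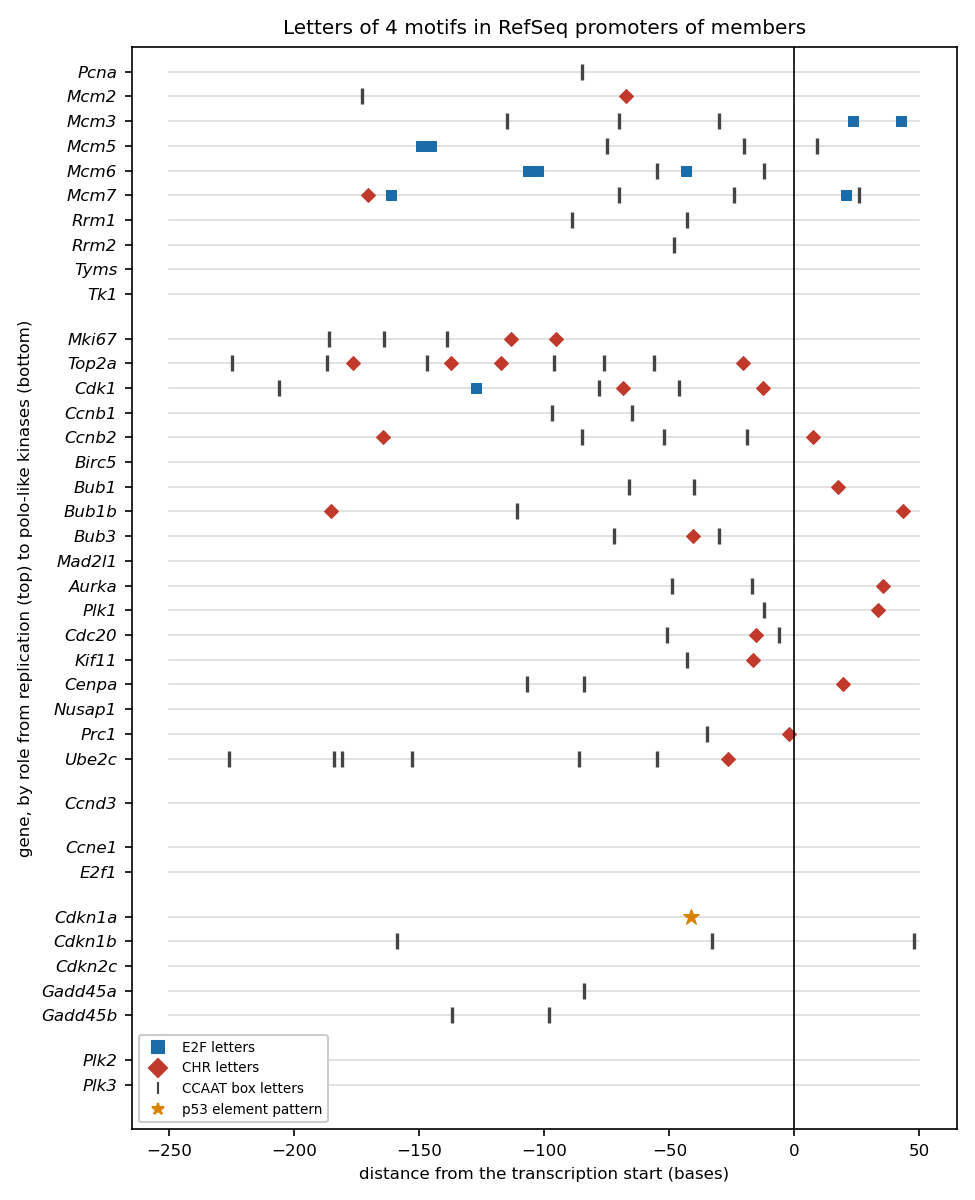
Positions of E2F letters (squares), CHR letters (diamonds), CCAAT boxes (bars) and the p53 element pattern (star) from 250 bases before to 50 after the transcription start (x axis, bases) in RefSeq promoters of 38 genes (y axis, by role), with the most upstream start drawn where a gene has several. CHR letters lie in 14 mitosis genes, E2F letters in 4 replication genes and in Cdk1, and the p53 element in Cdkn1a alone.

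The D-type cyclins link growth signals to the cycle, and each went its own way. Cyclin D1 (Ccnd1) gave 344 in control and 204 in MSU membranes and was 1.69-fold lower, and its other probe sets gave log2 ratios of -0.90 and -0.16. Cyclin D2 (Ccnd2) had 517 and 690 and was 1.33-fold higher, and all 5 probe sets with a fold were above 0, from 0.17 to 0.54. Cyclin D3 (Ccnd3) had 822 and 830, near equal in both pools. Its other probe sets gave log2 ratios of 0.02 and 0.53, the latter from signals close to the floor (69.4 and 100). Scaling on the spike-ins puts the log2 ratios of Ccnd2 and Ccnd3 at -0.04 and -0.44 and that of Ccnd1 at -1.21, and the order of the 3 genes is the same. Their partner kinases, from the list of other cyclins and CDKs, were 1.34-fold lower for Cdk4 and 1.24-fold higher for Cdk6, the latter also turned by the spike-ins. Downstream, cyclin E1 (Ccne1, 116 and 98.0) was 1.19-fold lower, the factor E2f1 (157 and 136) 1.16-fold lower and the retinoblastoma gene Rb1 (307 and 334) 1.09-fold higher, or below 0 at a log2 ratio of -0.33 under the spike-in scaling. The other probe set of Ccne1 had a log2 ratio of 0.21, so it has no direction.

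The inhibitors differed between the pools in both directions. Over the 6 genes the median log2 ratio was 0.78, and between 0.32 and 0.80 under the scalings tried. However, 2 of the 6 passed 2-fold upwards and 2 downwards, beside 3.70% and 4.29% of all measured genes. Cdkn1a (p21), the CIP/KIP inhibitor that p53 and stress induce, gave 731 in control and 2012 in MSU membranes, a 2.75-fold higher signal. Its ratio exceeded that of 98.4% of all genes with a fold. A second probe set of Cdkn1a lay below both floors (15.3 and 69.8). Cdkn1b (p27), which holds resting cells out of the cycle, gave 263 and 411, or 1.56-fold higher. Cdkn1c (p57), the imprinted member of the same family, went the other way, with signals of 709 and 340, or 2.08-fold lower. Cdkn2c (p18), of the INK4 family, had signals of 591 and 244 and was 2.43-fold lower, and 1.77% of all genes with a fold had a lower ratio. The CIP/KIP family thus held a gene at least 2-fold higher and a gene at least 2-fold lower.

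Of the GADD45 family, Gadd45a and Gadd45b were higher, while Gadd45g, from the list of other inhibitors, was near equal at 359 and 355. Gadd45a gave 111 in control and 338 in MSU membranes, or 3.06-fold higher, the highest ratio of the 45 genes and the only one past 3-fold. Gadd45b, which NF-κB and TGF-β induce, had 493 and 925 and was 1.88-fold higher, and its other probe sets above the floor gave log2 ratios of 1.18 and 0.35. The polo-like kinases Plk2 and Plk3 respond to stress and growth signals. Plk3 gave 132 and 291, a log2 ratio of 1.14, whereas Plk2 had 616 and 553 and was 1.11-fold lower. With the spike-in scaling Plk3 was no longer past 2-fold, at a log2 ratio of 0.68, while Cdkn1a and Gadd45a stayed past it at 1.00 and 1.16.

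No E2F or CHR letters were found in the promoters of the 5 inhibitor genes in the table or of Plk2 and Plk3. That of Cdkn1a is shown because it holds a p53 response element, searched by its known 20-base pattern with at most 1 base off, a search added after the sequence had been seen. Such a pattern occurs in 29 of 32851 promoters, or 0.0883%, and in none of the other genes among the 38 with a promoter in the table. It lies from 51 to 32 bases before the more upstream of 2 RefSeq starts of Cdkn1a, at chr17:29090729-29091028 (GRCm38.p6, plus strand), and is in capitals.
Cdkn1a: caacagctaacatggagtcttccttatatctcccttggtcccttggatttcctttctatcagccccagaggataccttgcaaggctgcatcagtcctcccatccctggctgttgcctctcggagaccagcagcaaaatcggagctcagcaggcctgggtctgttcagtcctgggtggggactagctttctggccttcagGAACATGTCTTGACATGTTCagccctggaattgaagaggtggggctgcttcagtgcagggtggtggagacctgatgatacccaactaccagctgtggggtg
Beside it, the list of p53 and its targets had 16 measured genes, with 0 past 2-fold in either direction and a median log2 ratio of 0.07. This list leaves out Cdkn1a, Gadd45a, Plk3 and Btg2, which were placed in other groups and each passed 2-fold upwards. The count of 0 thus depends on how the groups were divided. The highest of the 16 were the stress gene Ddit4, 1.88-fold higher, and Sesn2, 1.83-fold higher, and the lowest was Phlda3, 1.84-fold lower. Mdm2, the p53 target that degrades p53, gave 384 and 597, or 1.55-fold higher.

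The further genes of the cycle, taken from lists written by role, seldom reached 2-fold. Among all measured genes, 3.70% passed it upwards and 4.29% downwards. Of 43 other replication genes measured, 0 passed 2-fold in either direction, and the median log2 ratio was -0.22 over the 38 with a fold. The lowest fold was that of the polymerase delta subunit Pold2, 1.71-fold lower, followed by the licensing inhibitor geminin (Gmnn), 1.66-fold lower. Of 45 other mitosis genes measured, 2 passed 2-fold downwards and 0 upwards, with a median of -0.15. These were stathmin (Stmn1), which destabilizes microtubules, at 949 and 442, or 2.15-fold lower, and the kinetochore subunit Spc24, at 171 and 85.5, or 2.00-fold lower. The other cyclins and CDKs had a median of -0.23, with Mnat1, the assembly factor of the CDK-activating kinase, 1.65-fold lower and the ubiquitin enzyme Cdc34 1.47-fold lower, and 0 of 15 reached 2-fold. E2F factors, pocket proteins and DREAM subunits had a median of 0.10, the dimer partner Tfdp1 at 1.21-fold higher and the pocket protein Rbl2 at 1.21-fold lower, with 0 of 12 past 2-fold in either direction. The shift of 0.46 under the spike-in scaling exceeds the medians above 0 of the E2F, p53 and other inhibitor lists and the ratio of Tfdp1, so these have no direction that holds under every scaling.

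Other antiproliferative genes also went both ways. Of 8 measured, 3 passed 2-fold upwards and 0 downwards, beside 3.70% and 4.29% of all measured genes. Cyclin G2 (Ccng2), an atypical cyclin linked to arrest, gave 505 in control and 1100 in MSU membranes, or 2.18-fold higher. Btg2 had 213 and 445, or 2.09-fold higher, and Btg1 2102 and 4240, or 2.02-fold higher, both of the BTG/TOB family that slows division. Their relative Tob1 was 1.67-fold lower, and the INK4 gene Cdkn2b 1.68-fold lower. The INK4 genes thus had signals lower for Cdkn2c and Cdkn2b, near equal for Cdkn2d (438 and 468) and below the floor for Cdkn2a. None of the 3 higher genes passed 2-fold under the spike-in scaling. With scaling to the median signal, only 1 gene of all the further lists was at least 2-fold higher.

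**Figure D4:**
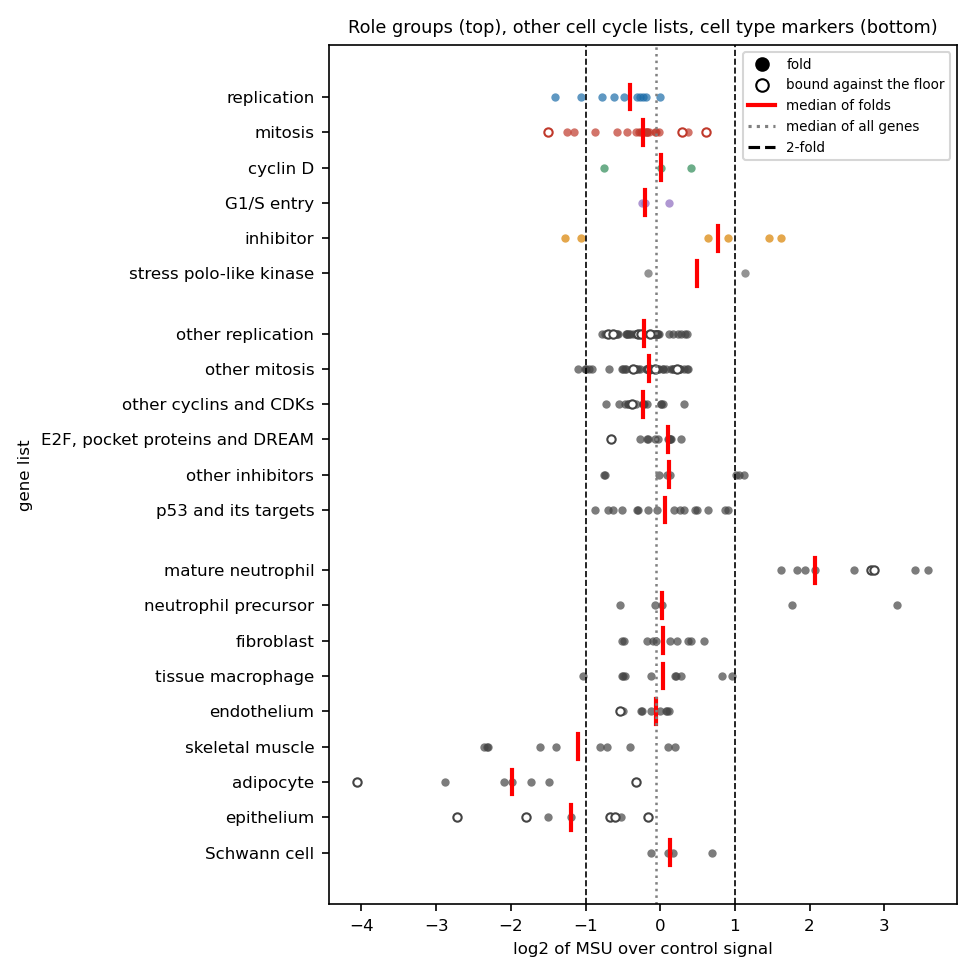
Log2 ratio, MSU to control (x axis), of genes measured in each role group (top), of 6 further lists of cell cycle genes (middle) and of cell type marker lists (bottom), with 1 array behind each pool. Red bars are medians of folds, filled points folds, open points bounds, dashed lines 2-fold and the dotted line the median of all genes. Red bars of replication and mitosis lie left of the dotted line at -0.40 and -0.23, and that of the inhibitors right of it at 0.78.

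Markers of several cell types also differed between the pools. Each of the 9 mature neutrophil markers measured passed 2-fold upwards, with a summed signal of 3310 in control and 25465 in MSU membranes. Of the neutrophil precursor markers, Elane, Prtn3, Ctsg and Camp lay below the floor in both pools and Mpo gave 74.2 and 75.4, close above it. Of the others on that list, Ngp and Chil3 passed 2-fold upwards, Ltf was 1.45-fold lower (234 and 161) and Fcnb 1.05-fold lower (93.5 and 89.0), and the median log2 ratio of the 5 measured was 0.02. Adipocyte markers summed to 14230 in control and 3588 in MSU membranes, with 6 of 7 measured at least 2-fold lower. Skeletal muscle markers summed to 41596 and 26640, with 5 of 10 at least 2-fold lower, and epithelial markers to 2048 and 700, with 4 of 8. Fibroblast markers (56268 and 63809), macrophage markers (28950 and 28791) and endothelial markers (1843 and 1656) summed to similar signals, with Folr2, of the macrophage list, alone at least 2-fold lower among these, and 0 of 8 T and B cell markers were measured. Schwann cell markers summed to 4086 and 4110. The part of these shifts in the ratios of Cdkn1c, Cdkn2c, Cdk1, Pcna and the other genes was not tested.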

How the data were processed

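RNA of 3 control and 3 MSU membranes was pooled per condition and hybridized by the authors to 1 Affymetrix Mo430_2 array each. The authors deposited a linear intensity for each probe set. The submitters' notes name MAS5 (version not given in the sources used here). After trimming 2% of the probe sets at each end, the mean was 150 on both arrays, and the median signals were 56.4 (control) and 59.2 (MSU). They were used as deposited and not as log values, and detection calls were not used here.

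Gene names came from the platform annotation, updated through gene identifiers to RefSeq (GRCm38.p6), and probe sets of several genes were left out. Where a gene had several probe sets, the brightest by mean log2 signal stood for it. To set the floor, probe sets were ranked by signal and the rank equal to the number the paper counts as detected was taken on each array, so it takes no account of the background of single probe sets. A bound is the signal above the floor divided by the floor of the other array. Bounds do not enter medians. No p-value was computed from the 2 arrays, whose number limits the precision.

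The genes, lists and motifs were chosen with earlier results of these data known. All 47 genes are accounted for. Of other lists, genes past 2-fold and otherwise the largest folds are named, and Incenp, Cdca8, Cdk4, Cdk6, Mdm2, Cdkn2d and some further genes were chosen after their values were seen. Promoters were RefSeq sequences, found for 38 of the 47 genes. Alternatives were other scalings, floors, a pseudocount, other choices of probe set, bounds in medians and a size of 3-fold. The gene step was tested on simulated data. Computations used Python 3.11.15, pandas 2.3.3 and numpy 2.4.6.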

Additional observations from a re-analysis of the deposited data

How the results depend on the processing

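Scaling to the median signal, quantile normalization, no floor, the median over probe sets and leaving out probe sets ending in _x_at or _s_at all left 3 of the 47 genes past 2-fold upwards and 7 downwards, and these were the same genes. None of these 10 genes has a second probe set with a fold, and none of their probe sets ends in _x_at or _s_at. Leaving out the floor and the choices of probe set could therefore add genes but not remove any of the 10. With no floor, however, 8.92% of all genes passed 2-fold upwards and 9.48% downwards, against 3.70% and 4.29% with it. Median scaling gave shares of all genes of 3.3% and 5.15%, and quantile normalization 3.61% and 4.17%. These shares were 3.57% and 3.9% with the median over probe sets, and 3.74% and 4.38% without probe sets of those endings. With the floor at the 15000th highest signal the counts were 3 and 5 of 40 genes measured, beside 3.66% and 4.01% of all genes. Tk1 and Ube2c were no longer measured at that size. Scaling on the spike-ins gave 2 and 12, the floors as a pseudocount 2 and 1 (1.81% and 1.19% of all genes), and a size of 3-fold 1 and 0 (1.47% and 0.717%). The spike-in scaling put the medians at -0.86 (replication), -0.68 (mitosis), -0.44 (cyclin D), -0.67 (G1/S genes), 0.32 (inhibitors) and 0.035 (polo-like kinases), and at -0.59 over the further cell cycle lists in place of -0.13. The median over all genes with a fold was then -0.51. The median of the G1/S genes was 0.12 in place of -0.21 without probe sets ending in _x_at or _s_at, where Ccne1 is represented by its other probe set. In the further lists, 3 of the 139 genes measured passed 2-fold upwards and 2 downwards, beside 3.70% and 4.29% of all genes. These counts were 1 and 4 with median scaling (3.3% and 5.15% of all genes) and 0 and 23 with the spike-ins (1.77% and 15.8% of all genes). They were 5 and 9 with no floor, 1 and 0 with the pseudocount and 0 and 0 at 3-fold, with the shares of all genes given above. With the higher floor 1 gene was lower, beside 4.01% of all genes. The cause of the spike-in difference was not tested. Of the recomputed log2 ratios of single genes, 287 moved by less than the median SD of 0.22 between probe sets and 66 by more. The spike-in scaling lowers each ratio by 0.46, so all its ratios are among the 66. Scaling to the median lowers each by the same small amount and leaving out the floor changes no fold, so theirs are all among the 287. For these settings the split says nothing about single genes. None of the 10 genes past 2-fold changed sign under any alternative run. This could hardly have come out otherwise, since the spike-in shift of 0.46 is smaller than each of their log2 ratios in size and no other probe set could replace theirs. No paired analysis was possible because each condition has 1 array. The sample number and signals near the floor limit what can be read from Tk1, Ube2c, Bub1, Bub1b, Kif11 and Kif20a.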

Other observations

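Complexes of the replication fork had members with unequal ratios, described here after their values were seen. Of the origin recognition complex, which marks where replication can begin, Orc2 to Orc6 had log2 ratios between -0.09 and -0.01, and Orc1 one of 0.33, a size below the shift of the spike-in scaling. Polymerase delta had its subunits at -0.57 (Pold1), -0.78 (Pold2) and -0.13 (Pold3). Both primase subunits, which lay the RNA primers, were lower, Prim1 by 1.51-fold and Prim2 by 1.49-fold. The enzymes that finish lagging strands diverged, with DNA ligase I (Lig1) at 328 and 213, or 1.54-fold lower, and the flap endonuclease Fen1 at 576 and 738, or 1.28-fold higher, which the spike-in scaling would turn to lower.

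At the kinetochore, the NDC80 complex that holds microtubules had Nuf2 (189 and 94.8) at a log2 ratio of -0.9975, just short of 2-fold, Spc24 just past it, Spc25 (148 and 92.4) at -0.68, and Ndc80 below the floor in both pools. The centralspindlin motor Kif23 (118 and 116) and its partner Racgap1 (169 and 150) were 1.02- and 1.13-fold lower. Securin (Pttg1), which restrains separase, was 1.94-fold lower at 600.2 and 309, and the condensin subunit Ncaph 1.88-fold lower at 233 and 124, whereas the condensin subunits Smc2 and Smc4 were 1.14- and 1.01-fold lower.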
